A study of Mus musculus with 8 samples.

Results

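Stroma 2 is one of the 2 stromal cell classes of the mouse iris, marked by *Pdgfra*, *Dcn* and *Tfap2b*, while the other, stroma 1, expresses pigment cell genes. The nuclei described here are those that the authors labelled stroma 2 in irises held constricted with pilocarpine or left untreated. There were 4709 such nuclei, 1669 in 3 constricted libraries and 3040 in 3 untreated libraries, of 34357 nuclei of all cell types in the 8 libraries of the series. Constricted irises had received drops of 5% pilocarpine in both eyes every 1 h for 6 h, with the mice in the light, and were collected at 6.5 h. Untreated irises had no treatment and their lighting is not given in the sources used here, so that the drug, the drops and the lighting cannot be told apart. The 2 dilated libraries, with 2054 stroma 2 nuclei, came from mice given 5% phenylephrine and 1% cyclopentolate in the dark. They entered the fit, where they contribute to the estimate of spread, and their levels are given for comparison. All mice were wild type (WT) female albino animals of 6 to 8 weeks, and each library was a pool of 5 to 6 irises with a variable rim of ciliary body, so that the library is the replicate. The study states 5 processing batches and 2 sequencing runs, with each condition spread over multiple batches. Which library was in which batch is not given in the sources used here, and the main fit had no batch term.

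Pilocarpine is a muscarinic agonist, which contracts the sphincter muscle and narrows the pupil. The sphincter lies within the stroma at the pupil margin, so that its contraction draws the stroma inward and stretches it radially, while relaxation and dilation fold it toward the iris root. Mesenchymal stromal cells make the collagen and proteoglycan matrix of the iris, and in other tissues such cells respond to stretch, agonists and growth factors by changing transcription of matrix, cytoskeletal and signalling genes. The comparison asks which genes of stroma 2 nuclei differ after sustained constriction.

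Of 12788 genes with enough counts to test, 2 differed between constricted and untreated stroma 2 at an adjusted p under 0.05 with an absolute log2 fold change above 0.6, and both were higher after constriction (0.0156% of the genes tested). They were *Wnt2*, a secreted Wnt ligand, and *Col12a1*, the chain of collagen XII, which coats collagen fibrils and links them to the surrounding matrix. No gene was called lower (0%) by the edgeR quasi-likelihood test, while 291 genes were lower at an unadjusted p under 0.05, 5 were called lower by DESeq2 and 0 by limma-voom. Blocks in edgeR changed this count, since 9 genes were called lower, of 22 in all, with the run of library numbers in the labels (2 to 4, 13, or 15 to 18) as a block, and 5 lower, of 17, with the replicate number as a block. Without a multiple-testing correction 676 genes (5.29%) passed p under 0.05, 385 of them higher and 291 lower, which is near the share that the threshold itself allows. Both calls depended on single libraries. The count was 0 without untreated replicate 2, 0 without untreated replicate 3, and 1 without constricted replicate 2, where *Pde10a* alone was called.

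*Wnt2* lies at chr6:17988940-18030585 on the minus strand of GRCm38. Its level, in counts of unique molecular identifiers (UMIs, 1 per captured transcript) per 1000000 UMIs of stroma 2 (CPM), was 6.04, 4.69 and 6.79 in untreated replicates 1 to 3 and 37.6, 34.4 and 47.2 in constricted replicates 1 to 3. Every constricted library lay far above every untreated one, and the groups were separated by a gap wider than either group's range. The log2 fold change was 2.76 ± 0.31 (SE, n = 3 and 3), or 6.79-fold, with an adjusted p of 0.0124 in edgeR. The counts behind it were low, with 5, 15 and 24 UMIs in the untreated and 67, 32 and 72 in the constricted libraries. The call was lost without constricted replicate 2 (adjusted p = 0.0504), untreated replicate 2 (0.215) or untreated replicate 3 (0.107), with log2 fold changes of 2.84, 2.60 and 2.96.

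The 300 bases around the start of *Wnt2*, 250 before it and 50 after it, are shown because *Wnt2* had the lowest p of all genes (RefSeq, GRCm38.p6, minus strand, chr6:18030396-18030695).
Wnt2: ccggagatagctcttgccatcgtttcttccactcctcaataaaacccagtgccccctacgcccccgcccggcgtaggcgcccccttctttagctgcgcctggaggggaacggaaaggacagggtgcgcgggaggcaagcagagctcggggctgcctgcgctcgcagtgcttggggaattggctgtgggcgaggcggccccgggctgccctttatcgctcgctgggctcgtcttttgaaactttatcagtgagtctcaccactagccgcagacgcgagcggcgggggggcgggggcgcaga
Its GC content was 65.7%, against a median of 52.7% over the 32851 windows of the table. None of 6 motifs searched on both strands was found in this window. They were the cyclic AMP response element TGACGTCA (in 1.79% of all windows), the AP-1 motif TGANTCA (7.81%), the EGR motif GCGTGGGCG (0.612%), the E-box CACGTG (7.15%), the TEAD motif GGAATG (14.7%) and TATAAA (13.6%), and no motif contains another. The absence says only that these letters are not in this window.

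*Col12a1* lies at chr9:79598991-79718831 on the minus strand. Its level was 119.7, 86.6 and 91.4 CPM in the untreated libraries and 246.1, 251.9 and 354.2 CPM in the constricted libraries. The gap between the groups was wider than the range of either. The log2 fold change was 1.55 ± 0.19 (SE), or 2.93-fold, with an adjusted p of 0.0149 in edgeR. Without constricted replicate 2, untreated replicate 2 or untreated replicate 3 the adjusted p was 0.0537, 0.253 and 0.238, and the log2 fold change of *Col12a1* stayed between 1.35 and 1.67 with any single library left out.

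The next 4 genes had an adjusted p between 0.0546 and 0.0575, just outside the threshold, each higher in 3 of 3 constricted libraries. *Nampt*, the rate-limiting enzyme of NAD salvage, was at 441.2, 374.7 and 410.7 CPM in untreated and 764.8, 844 and 861.3 CPM in constricted libraries, a log2 difference of 1.02 ± 0.15 (SE). *Ntrk3*, the receptor of neurotrophin-3, was at 253.8, 262.4 and 264.9 CPM in untreated and 463.7, 498.4 and 485.4 CPM in constricted libraries, a log2 difference of 0.89 ± 0.14. *Aqp1*, a water channel, was at 37.5, 41.6 and 45.9 CPM in untreated and 83.5, 115.2 and 121.4 CPM in constricted libraries, a log2 difference of 1.33 ± 0.20. The groups did not overlap for any of the 3 genes, and their adjusted p was 0.0546, 0.0575 and 0.0546 in edgeR. Across all genes tested, the libraries of the groups did not overlap for 1373 genes (10.7%), 677 with every constricted library above every untreated one and 696 below. DESeq2, with the same libraries, passed all 3 of these genes and called 24 genes in all.

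*Pde10a*, a phosphodiesterase that breaks down both cyclic AMP and cyclic GMP, had the largest log2 difference of the genes tested, 3.18 ± 0.47 (SE), with an adjusted p of 0.0546. Its level was 33.8, 40.3 and 33.4 CPM in untreated and 176.1, 644.8 and 167.3 CPM in constricted libraries. All constricted libraries lay above all untreated ones, but constricted replicate 2 was far above the other two, so that the spread within the constricted group was wide. Without constricted replicate 2 the spread narrowed, and *Pde10a* passed the threshold at a log2 fold change of 2.23 (adjusted p = 0.00171 in edgeR).

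**Figure D1:**
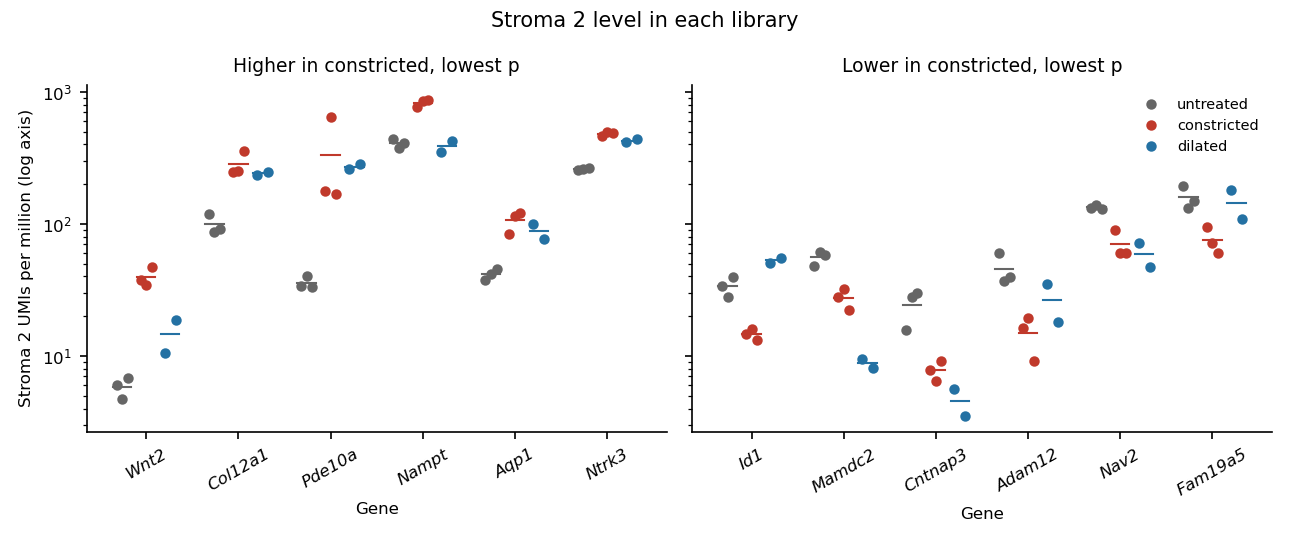
Level in stroma 2 of 12 genes in each library, in CPM on a log axis, for the 6 genes of lowest p that were higher (left) and lower (right) after constriction. Points are libraries (3 untreated, 3 constricted, 2 dilated) and bars are group means. In every panel gene the constricted points are separate from the untreated points, and for Pde10a constricted replicate 2 stands apart at 644.8.

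The *Pde10a* counts were concentrated in few nuclei. A nucleus held at most 3 UMIs of *Pde10a* in the 3040 untreated nuclei, and up to 50 UMIs in the 1669 constricted nuclei. Taking 5 or more UMIs as high, a limit chosen after the counts were seen, 61 constricted nuclei were high, or 3.65% (exact 95% binomial interval 2.81 to 4.67, counting error only). High untreated nuclei were 0 of 3040, which was fixed by a limit above the highest untreated count and is no support. For that 0, a floor of 3 nuclei is a share of 0.0987%, and the upper bound of the exact two-sided 95% interval is 0.121%. The high constricted nuclei were 11, 37 and 13 in constricted replicates 1 to 3, or 1.44%, 15.6% and 1.95% of each library's stroma 2 nuclei. Every constricted library thus held such nuclei, and constricted replicate 2 held most of them. The shares of the constricted libraries all lay outside the pooled interval. That interval and the untreated bound treat nuclei as independent and do not cover the spread between libraries. These 61 nuclei held 64.3% of all *Pde10a* UMIs of the constricted nuclei. Among the other nuclei the level of *Pde10a* was 96.4 to 113.4 CPM in constricted libraries, against 33.4 to 40.3 CPM in untreated ones.

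Stroma 2 markers were detected in the high nuclei, at levels that differed from the other nuclei in some libraries. These levels come from 11, 37 and 13 high nuclei in constricted replicates 1 to 3, and so rest on few UMIs. *Tfap2b*, a transcription factor of this class, was at 3410, 2486 and 1976 CPM in the high nuclei of constricted replicates 1 to 3 and at 3342, 2257 and 2555 CPM in the other nuclei. *Dcn*, the matrix proteoglycan decorin, was lower in the high nuclei of all 3 libraries, at 1115, 1897 and 1613 CPM against 1702, 2616 and 2320 CPM. *Pdgfra*, a growth factor receptor of mesenchymal cells, was at 295, 837 and 1449 CPM against 671, 754 and 851 CPM, and *Glis1* at 820, 1027 and 1021 CPM against 1161, 649 and 584 CPM, neither in the same order in every library. Their median depth was 2500, 4098 and 2286 UMIs in constricted replicates 1 to 3, against 2238, 3764.5 and 2148 UMIs in the other nuclei of the same libraries. *Pde7b*, a cyclic AMP phosphodiesterase, was at 1115, 1034 and 1152 CPM in the high nuclei and 279.5, 367.2 and 195.4 CPM in the other nuclei of constricted replicates 1 to 3. It was thus higher in the high nuclei of all 3 libraries, but not alone in this. *Pde3a*, another phosphodiesterase, was at 2197, 3592 and 1054 CPM in the high nuclei and 1096, 1180 and 804 CPM in the other nuclei. No test is given because the nuclei were picked by their counts. In stroma 2 as a whole *Pde7b* averaged 329 ± 33 CPM (SD, n = 3) in untreated and 328 ± 135 CPM in constricted libraries, a log2 difference of -0.00 ± 0.27 (SE) and an adjusted p of 1.00. High nuclei were also present after dilation, 60 of 2054 (2.92%), where pooled *Tfap2b* was at 1249 CPM against 2580 CPM in the other dilated nuclei. Pooled *Dcn* was at 888 CPM against 1090 CPM and *Pdgfra* at 497 CPM against 743 CPM, while *Glis1* was higher, at 1393 CPM against 1278 CPM.

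**Figure D2:**
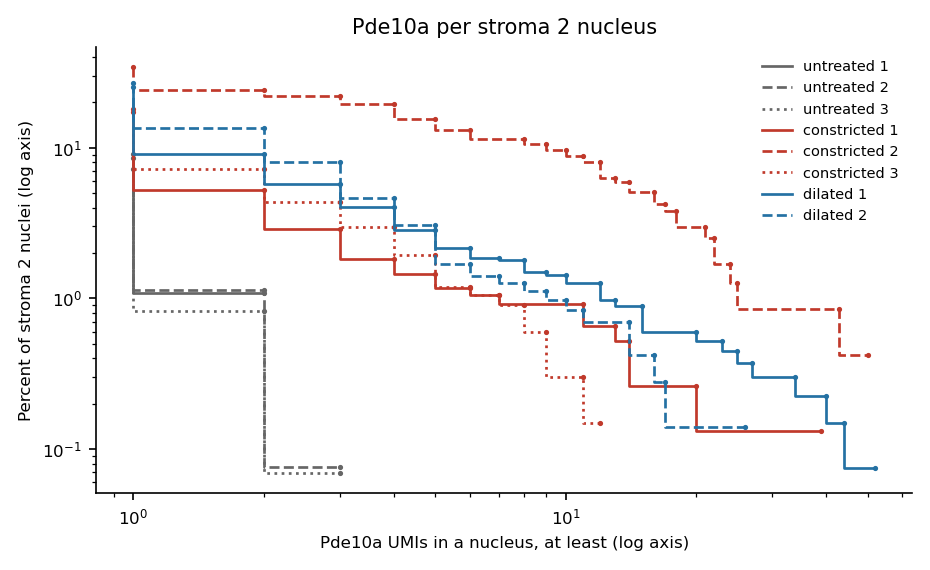
Percent of stroma 2 nuclei that hold at least a given number of Pde10a UMIs, one line per library, with log axes. The 3 untreated lines end at 2 or 3 UMIs, while the constricted lines reach 39, 50 and 12 UMIs and the dilated lines 52 and 26.

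Detection of the 6 genes of lowest p was also compared at equal depth, with each nucleus thinned to 1000 UMIs and shallower nuclei left out (119 untreated, 26 constricted). *Nampt* had a UMI in 24.2 to 31.5% of untreated and 41.4 to 46.4% of constricted nuclei per library (43.0 to 52.7% and 59.6 to 69.6% before thinning). *Ntrk3* had one in 17.04 to 19.3% and 33.1 to 34.7% of nuclei, and *Col12a1* in 8.27 to 11.1% and 16.7 to 23.3%. The ranges of the conditions were apart for each of these genes. Iris pigment epithelium (PE) nuclei, which had a median of 2765 to 4716 UMIs per library against 2154.5 to 3825 in stroma 2, served as a background for free RNA. In them the thinned share was 1.16 to 3.59% for *Nampt*, 0.304 to 1.497% for *Ntrk3* and 0.426 to 0.898% for *Col12a1* over the 6 libraries. For *Wnt2* the thinned share was 0 to 0.574% in untreated stroma 2, which is at the iris PE level of 0 to 0.599%, and 1.69 to 4.30% in constricted stroma 2. For *Pde10a* it was 2.94 to 3.34% in untreated stroma 2, above untreated iris PE (1.70 to 2.10%) but within the range of constricted iris PE (1.79 to 3.78%), and 9.92 to 21.6% in constricted stroma 2. For *Aqp1* the shares in iris PE were above those in stroma 2 within each condition. They were 6.59 to 9.40% against 3.70 to 3.98% in untreated and 10.5 to 13.3% against 6.08 to 9.52% in constricted libraries. Iris PE could thus not serve as a background for this gene. Mean *Aqp1* in untreated and constricted libraries was 41.6 and 107 CPM in stroma 2 and 86.6 and 128 CPM in iris PE. In stroma 1 it was 9.61 and 5.72 CPM, and in endothelial cells 270 and 563 CPM. The part of free RNA in the *Aqp1* counts of stroma 2 was not tested.

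The next genes by p among those with a higher level, none of them past the threshold, are given by their values. *Actn2*, an alpha-actinin of the sarcomere Z disc, was at 33.8, 26.6 and 21.2 CPM in untreated and 69.5, 44.1 and 69.5 CPM in constricted libraries (adjusted p = 0.205 in edgeR). *Csrp2*, a LIM domain protein of smooth muscle, was at 83.4, 78.5 and 72.7 CPM and at 128, 154 and 184 CPM (adjusted p = 0.246). *Vgll3*, a cofactor of TEAD transcription factors, was at 6.04, 4.07 and 3.68 CPM and at 12.3, 16.1 and 22.3 CPM (adjusted p = 0.205). The groups did not overlap for these genes, nor for *Scd2*, a fatty acid desaturase, with a log2 difference of 0.82 ± 0.16 (SE). *Lrtm1* (1.90 ± 0.39) and *Bglap2* (2.94 ± 0.60), an osteocalcin gene, had larger differences with wider errors. *Bglap2* has near-identical neighbours, so that its reads may be split among copies. Both windows printed next hold a motif, marked in capitals, and belong to the 2 genes among these with a matched window. *Actn2* held the E-box at 2 places (minus strand, chr13:12340683-12340982). *Vgll3* held the TEAD motif on the reverse strand (plus strand, chr16:65814939-65815238). *Scd2* had no matched window, and *Csrp2*, *Lrtm1* and *Bglap2* were not searched.
Actn2: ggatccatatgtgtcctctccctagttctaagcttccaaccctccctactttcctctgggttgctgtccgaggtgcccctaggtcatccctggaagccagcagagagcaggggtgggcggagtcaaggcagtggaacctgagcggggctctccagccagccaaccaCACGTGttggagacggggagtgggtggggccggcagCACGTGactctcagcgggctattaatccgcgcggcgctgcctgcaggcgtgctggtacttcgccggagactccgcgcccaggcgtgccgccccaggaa
Vgll3: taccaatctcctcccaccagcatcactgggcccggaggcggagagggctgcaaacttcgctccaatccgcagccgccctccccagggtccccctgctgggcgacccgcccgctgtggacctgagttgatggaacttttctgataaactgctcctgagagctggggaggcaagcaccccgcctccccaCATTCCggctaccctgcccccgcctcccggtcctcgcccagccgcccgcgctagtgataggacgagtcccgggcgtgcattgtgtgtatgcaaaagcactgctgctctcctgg
Windows were matched for 7 of the 12 genes of lowest p, 8 windows in all, since *Pde10a* had 2. *Cntnap3* held TATAAA on the reverse strand, and the windows of *Pde10a*, *Nampt* and *Aqp1* held no motif.

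No gene with a lower level after constriction passed the threshold, and the lowest adjusted p on that side was 0.205. It belonged to *Id1*, an inhibitor of basic helix-loop-helix factors and a target of BMP signalling, at 33.8, 28.1 and 39.3 CPM in untreated and 14.6, 16.1 and 13.1 CPM in constricted libraries, a log2 difference of -1.22 ± 0.22 (SE). Its relative *Id3* was at 279, 296 and 365 CPM and at 171, 116 and 203 CPM (-0.93 ± 0.21, adjusted p = 0.291). Neither gene's libraries overlapped between the groups. *Adam12*, a metalloprotease of the cell surface, was at 60.4, 36.9 and 39.6 CPM in untreated and 16.3, 19.4 and 9.18 CPM in constricted libraries (-1.58 ± 0.32, adjusted p = 0.246). *Nav2*, a microtubule-associated neuron navigator, was at 132, 140 and 130 CPM and at 90.3, 60.3 and 59.7 CPM (-0.92 ± 0.19). *Col26a1*, *Cntnap3*, *Mamdc2* and *Fam19a5* had log2 differences of -1.42, -1.69, -1.06 and -1.04, all with an adjusted p of 0.246 and with groups that did not overlap. The remaining 4 genes of the 12 with the lowest p on this side, *Echdc3*, *A330069E16Rik*, *Ttc6* and *Prrx2*, had log2 differences from -1.17 to -0.83.

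**Figure D3:**
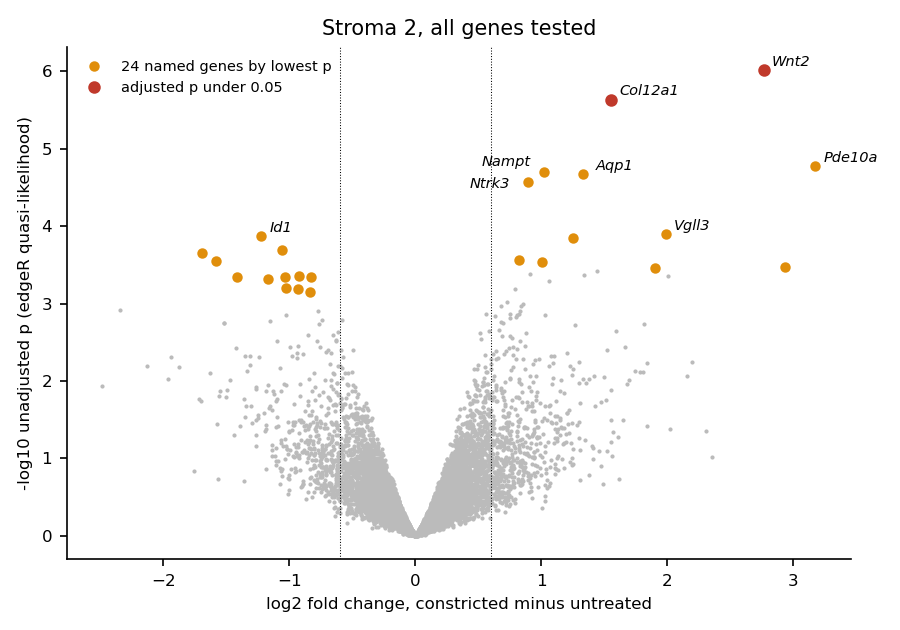
Log2 fold change (constricted minus untreated, x axis) against -log10 unadjusted p (y axis) for the 12788 genes tested in stroma 2. Wnt2 and Col12a1 (red) are the 2 genes with an adjusted p under 0.05, orange points are the other genes named by lowest p in each direction, and dotted lines mark a log2 fold change of 0.6 either way.

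The precision of the comparison depended on expression level. The 95% interval of the log2 fold change reached a median of 0.55 to either side of the estimate over all genes tested, 1.01 for the 2502 genes under 10 CPM and 0.37 for the 1946 genes over 100 CPM. For 69.7% of genes the whole interval lay within 1 log2 unit of no change on either side. The stroma 2 UMIs behind these values were 827302 to 3533247 per library. The squared Pearson correlation of log10(1 + counts per 10000) over all 22873 genes was 0.983 between the pooled conditions, 0.937 to 0.969 over the 9 pairings of single libraries across conditions, 0.943 to 0.955 within constricted and 0.962 to 0.992 within untreated libraries. These correlations are across genes, which are not independent replicates, and single libraries of the same condition were no more alike than the constricted pairs with untreated ones, apart from untreated replicates 2 and 3. Those 2 libraries differed by more than sampling noise (chi-square per degree of freedom of 1.98), but by less than any other pair within a condition (4.18 to 8.30), and with both summed into 1 library no gene was called.

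Stroma 2 made up 18.7, 20.6 and 22.3% of all nuclei in untreated and 18.1, 18.6 and 19.3% in constricted libraries. The difference of -1.88 percentage points had a two-sided exact permutation p of 0.2, where 0.1 is the smallest that 3 against 3 libraries allow. Leaving out the ciliary body classes, whose amount varies with the dissection, the shares were 21.1, 21.7 and 23.1% against 19.4, 21.3 and 19.9% (exact permutation p = 0.2). Median UMIs per stroma 2 nucleus were 2999, 2381 and 2382.5 in untreated and 2242.5, 3825 and 2154.5 in constricted libraries (exact permutation p = 1), with constricted replicate 2 the deepest per nucleus. A share of nuclei cannot tell fewer stroma 2 cells from more cells of other types. Up to 63 cell barcodes were shared by a pair of libraries (4.26% of the smaller), untreated replicate 1 and dilated replicate 1. Between a constricted and an untreated library the most was 14 (0.947%). Without nuclei whose barcode was in another library the same 2 genes were called.

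The labelled class was checked against its markers. The 8 stroma 2 markers summed to 13473 to 15457 CPM in untreated and 12030 to 13517 CPM in constricted stroma 2, and each was detected. Markers of the other labelled classes were present below the level in their own class. No own-class level was available for Schwann cells and pericytes. The 8 stroma 1 markers summed to 655 to 733 CPM in untreated and 304 to 718 CPM in constricted stroma 2, against 30483 CPM in untreated stroma 1. The 9 dilator muscle markers summed to 252 to 334 CPM and 93.7 to 310.6 CPM, the 7 sphincter markers to 112 to 121 CPM and 76.1 to 140.7 CPM, and the 7 iris PE markers to 215 to 249 CPM and 165 to 233 CPM. Constricted replicate 2 was the lowest library for stroma 1 and dilator markers. The 7 ciliary body epithelium markers summed to 699 to 894 CPM and 617 to 1059 CPM, against 10592 CPM in untreated ciliary body epithelium. The 5 ciliary body markers summed to 196 to 301 CPM and 150 to 268 CPM, and the 8 endothelial markers to 259 to 381 CPM and 205 to 387 CPM. Leukocyte, pericyte and Schwann cell markers reached at most 66.5, 46.3 and 404.8 CPM in any library. No listed marker was at 0 over the 6 libraries, the ranges of the conditions overlapped for each of these lists, and the two-sided exact permutation p was between 0.2 and 1. Without nuclei that held 3 or more UMIs of another class's markers, 7 genes were called, *Wnt2* and *Col12a1* among them, while *Ntrk3* went from 0.89 to 0.67 (adjusted p = 0.344). That filter was severe and uneven. It removed 69.0, 51.3 and 49.7% of stroma 2 nuclei in untreated replicates 1 to 3 and 51.8, 68.4 and 33.7% in constricted replicates 1 to 3.

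The receptors for the drug were scarce in these nuclei. *Chrm3*, the muscarinic receptor that drives sphincter contraction, was at 3.63, 20.6 and 14.7 CPM in untreated and 13.5, 12.9 and 9.84 CPM in constricted libraries (log2 difference -0.31 ± 0.57 SE). *Chrm2* was at 12.1, 12.5 and 11.6 CPM and at 18.5, 4.31 and 8.53 CPM, and *Chrm1* at 6.04, 10.6 and 4.25 CPM and at 2.24, 4.31 and 2.62 CPM. The libraries of both conditions overlapped for all 3 receptors, none passed the test, and *Chrm4* had 1 UMI in each condition. The 7 sphincter markers, which include *Chrm3* itself, summed to 76.1 to 140.7 CPM in these nuclei. The part of sphincter RNA in the *Chrm3* counts was not tested. Of 6 tested genes of the muscarinic and cholinergic list, 0 were called. The adrenergic receptor with the highest level was *Adra1b*, at 219, 258 and 231 CPM in untreated and 211, 160 and 97.1 CPM in constricted libraries (log2 difference -0.60 ± 0.22, adjusted p = 0.808). *Adra2a* (0.84 ± 0.28) and *Adra1a* (-0.47 ± 0.53) were measured without passing, and 5 other adrenergic receptors had at most 4 UMIs in either condition.

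Downstream of a Gq-coupled receptor, calcium release and the ERK cascade usually raise immediate early genes. Of 27 tested genes of the Gq and calcium list none was called, the median log2 difference was -0.01, against 0.01 over all genes tested, and the lowest p belonged to *Nfatc1*, a calcium-responsive transcription factor (0.87 ± 0.24, adjusted p = 0.588). *Ryr3*, a calcium release channel, was at 42.3, 41.9 and 44.4 CPM in untreated and 15.7, 33.4 and 13.8 CPM in constricted libraries (adjusted p = 0.778). Of 21 tested immediate early genes none was called (median log2 difference 0.04). *Junb*, an AP-1 subunit, was at 33.8, 46.9 and 50.9 CPM in untreated and 12.9, 11.8 and 24.9 CPM in constricted libraries (-1.42 ± 0.40, adjusted p = 0.588), and *Btg2*, an antiproliferative early gene, at 15.7, 18.1 and 19.2 CPM and at 7.29, 6.46 and 8.53 CPM. Both were lower in every constricted library, while *Fosl2*, another AP-1 subunit, was higher in every one, at 8.97, 9.69 and 9.18 CPM against 4.83, 5.32 and 3.11 CPM. Of the 21 genes, 2 thus had every constricted library below every untreated one and 1 the reverse, against 5.44% and 5.29% of all genes. None of 16 ERK feedback genes was called (median 0.02), and their 95% intervals reached a median of 0.86 to either side, so that smaller differences could not be detected for a typical member.

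Cyclic nucleotide genes were compared because *Pde10a* is among them. Of 18 tested phosphodiesterases none was called, with a median log2 difference of 0.12. After *Pde10a* the lowest p was that of *Pde8b*, a cyclic AMP phosphodiesterase, at 33.8, 50.0 and 53.2 CPM in untreated and 95.3, 74.3 and 69.5 CPM in constricted libraries (0.75 ± 0.20, adjusted p = 0.501), with groups that did not overlap. Of the 18, 2 had every constricted library above every untreated one and 0 the reverse, against 5.29% and 5.44% of all genes. *Pde3a*, which also degrades cyclic AMP, was at 699, 827 and 870 CPM and at 1115, 1577 and 809 CPM. Of 31 genes of cyclic AMP signalling none was called, and the median was 0.02.

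Matrix genes were compared as collagens, other matrix proteins and proteases. Of 26 listed collagen chains tested, 1 was called (*Col12a1*), against 0.0156% of all genes tested. A log2 difference above 0 was found for 18 of them, against 6590 of all 12788 genes. Their median was 0.24, against 0.01 over all genes. Of the 26, 5 had every constricted library above every untreated one and 1 the reverse, against 5.29% and 5.44% of all genes. *Col8a1*, a short-chain collagen, was at 64.1, 76.6 and 67.9 CPM in untreated and 110, 139 and 115 CPM in constricted libraries (0.79 ± 0.17, adjusted p = 0.291), and *Col4a3*, a basement membrane chain, at 43.5, 34.1 and 26.3 CPM and at 58.9, 48.4 and 55.1 CPM. *Col11a1* lay the other way, at -0.95 ± 0.40. *Col26a1*, a collagen gene that the list left out, was lower in every constricted library (-1.42 ± 0.30, adjusted p = 0.246 in edgeR). The counts and median above do not include it. Of 29 matrix glycoproteins and proteoglycans none was called and the median was -0.01, with *Sparc*, a matrix-binding glycoprotein, at 189, 128 and 150 CPM against 215, 291 and 264 CPM (0.75 ± 0.18, adjusted p = 0.411). *Fn1* (0.64 ± 0.22) and *Bgn* (0.43 ± 0.15) had the next lowest p. Of 23 matrix proteases and inhibitors none was called (median 0.08). *Timp2*, an inhibitor of matrix metalloproteases, was at 134, 127 and 128 CPM and at 186, 168 and 201 CPM.

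Of 21 tested targets of YAP and SRF, transcription regulators that respond to mechanical load, none was called. Their median log2 difference was 0.29. Of the 21, 14 were above 0 and 7 below, against 6590 and 6198 of all 12788 genes. An unadjusted p under 0.05 in edgeR was found for 6 on the higher side and 0 on the lower side, where all genes gave 3.01% and 2.28%. *Flna*, an actin crosslinker, was at 145, 82.3 and 86.6 CPM in untreated and 156, 195 and 163 CPM in constricted libraries (0.76 ± 0.21, adjusted p = 0.531), and *Thbs1*, a secreted thrombospondin, at 9.67, 7.19 and 3.96 CPM and at 20.2, 11.8 and 8.53 CPM (1.16 ± 0.38, adjusted p = 0.714). *Tnfrsf12a*, a receptor of the TNF family, was at 0, 0.938 and 1.70 CPM and at 4.49, 2.15 and 9.18 CPM, which rests on few UMIs. The libraries of *Flna* and *Tnfrsf12a* did not overlap between the conditions and those of *Thbs1* did.

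Among 41 tested genes of TGF-beta, BMP and Wnt signalling 1 was called, *Wnt2*, against 0.0156% of all genes tested. Below 0 lay 26 and above it 15, against 6198 and 6590 of all 12788 genes, and the median was -0.03. Of the 41, 7 had every constricted library below every untreated one and 3 the reverse, against 5.44% and 5.29% of all genes, and *Id1* and *Id3*, described above, were the next 2 by p. Of 34 growth factor ligands and receptors none was called (median 0.00 below 0). Beside *Ntrk3*, *Igfbp4*, a carrier that restrains insulin-like growth factors, was at 134.2, 133.6 and 145.5 CPM in untreated and 179, 259 and 284 CPM in constricted libraries (0.81 ± 0.20, adjusted p = 0.411). *Hgf*, hepatocyte growth factor, was at 694, 673 and 685 CPM and at 363, 524 and 412 CPM (-0.65 ± 0.17, adjusted p = 0.501). Neither gene's libraries overlapped between conditions. Of the 34, 4 had every constricted library above every untreated one and 3 the reverse, against 5.29% and 5.44% of all genes.

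Genes of inflammation, prostanoids, chaperones, glucocorticoid response and the circadian clock held no call among 13, 18, 19, 21 and 21 tested members, with medians of -0.00, 0.15, 0.11, 0.27 and 0.00. *Serpina3n*, an acute-phase protease inhibitor, was at 0, 0.938 and 1.13 CPM in untreated and 7.29, 3.23 and 0.656 CPM in constricted libraries, and *C1s1*, a complement protease, at 52.0, 50.4 and 49.2 CPM and at 81.9, 105.5 and 63.6 CPM. *Fkbp5*, a glucocorticoid target, was at 162, 45.4 and 37.6 CPM in untreated and 65.0, 90.4 and 249 CPM in constricted libraries, and *Tsc22d3*, another, at 79.8, 31.9 and 38.8 CPM and at 38.7, 73.2 and 199 CPM. The libraries of the conditions overlapped for both. *Nr1d1*, a clock repressor whose level follows the time of day, was at 20.5, 47.5 and 64.2 CPM and at 8.41, 22.6 and 21.0 CPM (adjusted p = 0.782), and the hour of collection is not given in the sources used here.

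**Figure D4:**
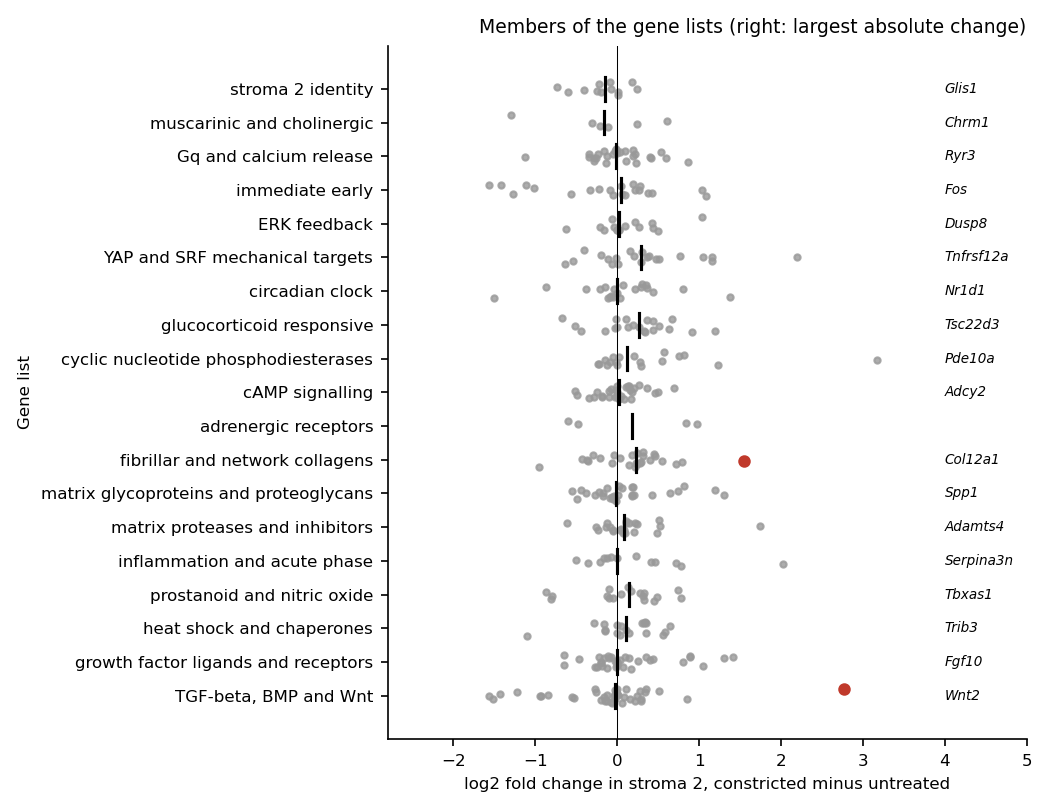
Log2 fold change in stroma 2 (constricted minus untreated) of the tested members of 19 gene lists, one point per gene, with the list median as a black bar and the member with the largest absolute value named at the right where it is reported. Col12a1 and Wnt2, in red, are the called members, and the list medians lie between -0.16 and 0.29.

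Genes that mark stroma 2 were compared as a check of cell identity. Of 12 tested identity genes none was called, and the median was -0.14. *Tfap2b* was at 2366, 2797 and 2930 CPM in untreated and 3343, 2295 and 2544 CPM in constricted libraries (0.02 ± 0.17 SE), and *Prrx1*, a homeodomain factor of mesenchyme, at 249, 224 and 201 CPM and at 216, 237 and 220 CPM (0.01 ± 0.14). The 3 of 12 members with every constricted library below every untreated one, against 5.44% of all genes, were *Glis1*, at 1458, 1223 and 1422 CPM against 1156, 712 and 593 CPM (-0.73 ± 0.26, adjusted p = 0.754), *Cdh11*, a cadherin of mesenchymal cells (-0.40 ± 0.16, adjusted p = 0.898), and *Adra1b*. *Foxc1*, a forkhead factor of the anterior segment, was higher in every constricted library, at 136.8 to 147.5 CPM against 114.2 to 127.6 CPM (0.24 ± 0.16, adjusted p = 0.998). *Eya2*, *Dcn*, *Lum*, *Pdgfra* and *Twist1* had log2 differences between -0.25 and 0.18 with overlapping libraries.

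Of the 6 genes of lowest p, 4 had their highest mean level in stroma 2 in both conditions. In constricted irises *Wnt2* averaged 39.7 ± 6.7 CPM (SD, n = 3) in stroma 2 and 3.69 ± 2.05 CPM in iris PE, the next class. *Col12a1* averaged 284 ± 61 CPM in stroma 2 and 33.3 ± 5.4 CPM in dilator muscle, *Nampt* 823 ± 51 CPM and 121 ± 80 CPM in leukocytes, and *Ntrk3* 483 ± 18 CPM and 25.8 ± 15.1 CPM in stroma 1. For *Aqp1* endothelial cells were higher, at 563 ± 282 CPM, against 107 ± 20 CPM in stroma 2. *Pde10a* in untreated irises averaged 572 ± 54 CPM in ciliary body, 240 ± 125 CPM in ciliary body epithelium and 154 ± 57 CPM in stroma 1, all above its 35.9 ± 3.9 CPM in stroma 2. In constricted irises *Pde10a* averaged 329 ± 273 CPM in stroma 2 and 172 ± 45 CPM in stroma 1, the next class. Constricted replicates 1 and 3 of stroma 2, at 176.1 and 167.3 CPM, lay within the stroma 1 range of 125 to 214 CPM. Ciliary body averaged 158 ± 77 CPM and ciliary body epithelium 73.5 ± 56.0 CPM. In sphincter muscle 1 *Pde10a* was 17.4 ± 5.8 CPM untreated and 51.7 ± 21.4 CPM constricted. The *Pde10a* differences in ciliary body, ciliary body epithelium and sphincter muscle 1 were not tested. No test is given for levels between classes, since the classes were defined from the same counts.

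Whether the constriction difference itself was larger in stroma 2 than in other classes was tested in joint fits of 2 classes with a term for each library. The differences called were 7 of 12620 genes against stroma 1 (0.0555%), 8 of 15749 against dilator muscle (0.0508%) and 22 of 15300 against iris PE (0.144%). *Pde10a* and *Nav2* were called in all 3. The effect on *Pde10a* was larger in stroma 2 by 2.68 ± 0.30 log2 units (SE) than in stroma 1 (adjusted p = 7.7e-06 in edgeR), by 2.66 ± 0.41 than in dilator muscle (0.0182) and by 2.04 ± 0.37 than in iris PE, where its own log2 differences were 0.19, 0.13 and 0.79. Against stroma 1 the *Pde10a* call held with each of the 6 libraries left out in turn (2.17 to 3.05), and against dilator muscle it was lost without constricted replicate 3 or untreated replicate 2 or 3. For *Nav2* the effect was lower in stroma 2 by 0.91 ± 0.18, 1.17 ± 0.17 and 0.95 ± 0.15 log2 units, its own differences in the other classes being 0.02, 0.24 and 0.05, and the *Nav2* call against stroma 1 was lost with any 1 library left out. With 1 library left out, all calls ran from 0 to 18 against dilator muscle and from 0 to 37 against iris PE. The calls of *Pde10a* and *Nav2* against these 2 classes thus did not hold throughout.

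The differences between classes for the 2 called genes did not pass. For *Col12a1* the effect in stroma 2 exceeded that in dilator muscle by 0.98 ± 0.19 log2 units (adjusted p = 0.110), that in iris PE by 1.295 ± 0.273 (adjusted p = 0.0715) and that in stroma 1 by 1.54 ± 0.67 (adjusted p = 0.806). For *Wnt2* the excess was 2.06 ± 0.58 against dilator muscle, 1.14 ± 0.72 against iris PE and 0.80 ± 2.73 against stroma 1, where *Wnt2* averaged 0.205 CPM in untreated libraries. None of these passed the adjusted threshold for *Wnt2* (adjusted p = 0.476, 0.868 and 0.992). The 95% interval of the *Wnt2* difference was 0.83 to 3.28 against dilator muscle (unadjusted p = 0.00254 in edgeR), -0.36 to 2.64 against iris PE and -4.78 to 6.38 against stroma 1. *Id3* differed by 0.02 ± 0.33 from stroma 1, where its own log2 difference was -0.95, and *Ntrk3* by 0.07 ± 0.42, with 0.83 in stroma 1. Tested alone, constriction calls were 0 of 8911 genes in stroma 1, 1 of 15395 in dilator muscle and 1 of 14128 in iris PE. Stroma 2 itself had 2 of 12788, so these counts do not set it apart.

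**Figure D5:**
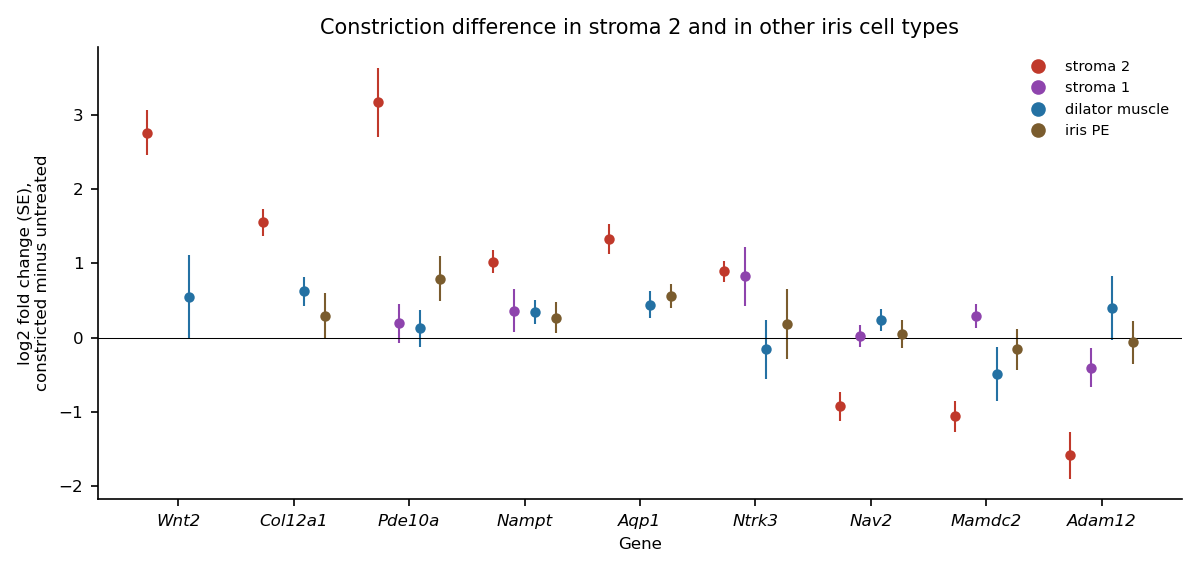
Log2 fold change with its SE (constricted minus untreated) of 9 genes in stroma 2, stroma 1, dilator muscle and iris PE; a missing point means that the gene was too low to test in that class. Pde10a stands at 3.18 in stroma 2 and at 0.19, 0.13 and 0.79 in the other classes, and Nav2 is below 0 in stroma 2 alone.

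Dilation and constriction are each compared with the same untreated libraries, so their values are given side by side without a test of likeness. After dilation 221 genes (1.73%) were called in stroma 2, 172 higher and 49 lower, from 2 libraries. *Col12a1* was at 234.5 and 248.2 CPM in the dilated libraries (log2 difference 1.35, adjusted p = 0.00763), *Pde10a* at 259.8 and 283.3 CPM (2.94, adjusted p = 0.0112), *Aqp1* at 101 and 76.5 CPM (1.11) and *Ntrk3* at 419 and 435 CPM (0.76). These 4 genes thus stood above all untreated libraries after either treatment. *Nampt*, at 348 and 426 CPM after dilation, did not lie above the untreated libraries, one dilated library being below all of them and the other within their range. *Wnt2*, at 10.5 and 18.7 CPM, lay between the untreated and the constricted libraries (1.28, adjusted p = 0.108). *Id1*, at 50.7 and 55.5 CPM, was above the untreated libraries after dilation and below them after constriction, whereas *Mamdc2*, at 9.43 and 8.18 CPM, was below them after both.

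The library numbers in the labels fall into runs (2 to 4, 13, and 15 to 18), which the labels do not call batches. These runs of numbers could not be matched to the 5 processing batches that the study states. Constricted replicate 1 against untreated replicate 1, from the first run, gave log2 ratios of 2.45 for *Wnt2*, 1.03 for *Col12a1*, 2.35 for *Pde10a*, 0.79 for *Nampt*, 1.14 for *Aqp1* and 0.87 for *Ntrk3*, computed on CPM + 1. Constricted replicate 3 against untreated replicates 2 and 3, from the last run, gave 2.86, 1.98, 2.16, 1.13, 1.45 and 0.88 for the same genes in that order. All 6 were above 0 in both runs. This had to be so, since for these genes every constricted library lay above every untreated one, and it is no separate support. Constricted replicate 2 stands alone in its run and has no untreated partner there.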

How the data were processed

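Single nucleus RNA-seq was made with the 10x Genomics Chromium v3 kit. The authors aligned reads to mm10 and counted UMIs per gene and nucleus with Cell Ranger 3.1.0, and clustered nuclei with Seurat. They deposited raw counts of 22873 genes, and for each nucleus its UMI and gene totals, its mitochondrial percent and its cell type, which was used as given. The study's stated filters were 1% mitochondrial, 500 and 6000 transcripts.

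Counts of stroma 2 nuclei were summed per library and scaled to counts per 1000000 (CPM) for display. All 8 libraries were fitted with edgeR 4.0.16 in R 4.3.3 (TMM, filterByExpr, quasi-likelihood F test, two-sided), contrasting constricted with untreated. SE is the absolute log2 fold change divided by the square root of F. Genes were called at Benjamini-Hochberg adjusted p under 0.05 and absolute log2 fold change above 0.6. Differences between classes came from joint fits of both classes with a term per library. DESeq2 1.42.0, limma 3.58.1, filters, blocks and single libraries left out were alternatives. Fits were tested on simulated counts. Members, lists and tests were chosen with earlier results of these data known. Named genes were all called genes, the 12 of lowest p in each direction, up to 3 of lowest p per list, muscarinic and adrenergic receptors, identity genes, and 6 of lowest p per comparison of classes. Some genes are not reported here. Doublets were not called, and nuclei with other classes' markers or most UMIs were left out as alternatives. Binomial intervals of shares of nuclei cover counting error only. Intervals of log2 fold changes, and p-values, cover the spread between pools. Positions are from GENCODE vM21 (22511 of 22873 genes matched), promoters from RefSeq.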

Additional observations from a re-analysis of the deposited data

Results flagged for a closer look

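The constriction effect differed between stroma 2 and another class, by the joint edgeR fit with library terms (adjusted p under 0.05), for 18 differences among the 6 of lowest p in each comparison. Values are the log2 effect in stroma 2 minus that in the other class. Against stroma 1 they were 2.68 for *Pde10a*, -1.36 for *Mamdc2*, 1.11 for *Gria4*, 1.38 for *Slc7a5*, -1.42 for *Ryr3* and -0.91 for *Nav2*. Against dilator muscle they were 1.14 for *Sncaip*, -1.17 for *Nav2*, -2.10 for *Col11a1*, -0.89 for *Stxbp6*, 2.66 for *Pde10a* and -2.01 for *Adam12*. Against iris PE they were 1.68 for *Pmepa1*, 1.26 for *Hmgcs1*, -1.51 for *Adam12*, -1.42 for *Fut9*, 1.19 for *Csrp2* and 1.29 for *Thbd*.

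In several of these the log2 differences had opposite signs in the 2 classes, neither being called in its own class. *Pmepa1* was at 0.52 in stroma 2 and -1.25 in iris PE, *Col11a1* at -0.95 in stroma 2 and 1.14 in dilator muscle, and *Sncaip* at 0.83 and -0.34 in the same pair. *Sncaip*, which encodes synphilin-1, was at 459, 517 and 515 CPM in untreated stroma 2 and at 1190.3, 746 and 716 CPM in constricted stroma 2, with constricted replicate 1 the highest. *Slc7a5*, an amino acid transporter, was at 38.7, 12.8 and 14.4 CPM and at 19.6, 35.5 and 84.6 CPM in stroma 2, which overlap.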

How the results depend on the processing

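The count of called genes was 2 (2 higher, 0 lower) also with RLE size factors. It was 24 (19 higher, 5 lower) with DESeq2, 4 (4 higher) with limma-voom, 102 (54 higher, 48 lower) without a filter on low counts, 1 (1 higher) with at least 50 UMIs in 3 libraries, 5 (5 higher) with only the 6 constricted and untreated libraries, 7 (6 higher, 1 lower) without nuclei with 3 or more UMIs of another class's markers, and 4 (4 higher) without the 5% of nuclei with most UMIs. With the run of library numbers as a block it was 22 (13 higher, 9 lower). With the replicate block it was 17 (12 higher, 5 lower). Deviations of equally numbered constricted and untreated libraries correlated at 0.163, -0.00 and 0.206, so the numbers were not taken to pair the libraries. The 3 pairs from the same run of library numbers correlated at 0.163, 0.130 and 0.206, and pairs from different runs at -0.211 to 0.0518. Leaving out 1 library in turn gave 0 to 5 genes (0 to 5 higher, 0 lower). Of 2 alternatives chosen after seeing the data, the one without shared barcodes gave 2 and the one with untreated replicates 2 and 3 summed gave 0. *Wnt2* was called in 13 of 17 alternatives and *Col12a1* in 14 of 18. The cause of these shifts was not tested.

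Calls of a difference between classes numbered 1 to 6 (stroma 1), 0 to 18 (dilator muscle) and 0 to 37 (iris PE) with 1 library left out, and 16 (dilator muscle) and 38 (iris PE) with 6 libraries. The difference in median UMIs per nucleus ran from -389 to 446.25, negative only without constricted replicate 2 (main value 153.2). The share of nuclei stayed lower, by 1.01 to 2.78 points.

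Of 2080 gene values under 18 alternatives, 23 changed sign, in 11 genes, all with overlapping libraries and none called. With 1 library left out the ranges were -0.072 to 0.52 (*Flt1*), -0.37 to 0.012 (*Notch3*), -0.19 to 0.90 (*Abcc9*), -0.81 to 0.16 (*Chrm2*), -0.57 to 0.13 (*Chrm3*), -0.13 to 0.11 (*Tfap2b*), -0.053 to 0.060 (*Prrx1*) and -0.27 to 0.13 (*Lum*). With the run as a block they were -0.050 (*Slc4a4*), -0.093 (*Flt1*), -0.54 (*Abcc9*), 0.10 (*Twist1*) and -0.051 (*Prrx1*). Limma-voom gave -0.78 (*Abcc9*), the marker filter 0.055 (*Emcn*) and -0.022 (*Tfap2b*), the top-UMI filter 0.067 (*Chrm3*), and the summed untreated libraries -0.0026 (*Prrx1*).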

Other observations

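Genes of sterol synthesis and its regulation were set apart in the comparison with iris PE, a group noticed after the values were seen and therefore given without a test of the group. Of 23 such genes 21 were tested in the joint fit, and the effect of constriction was larger in stroma 2 than in iris PE past the threshold for 5, against 0.144% of all genes there. They were *Hmgcs1* (1.26 ± 0.18 log2 units, SE), *Sqle* (1.22 ± 0.23), *Idi1* (1.69 ± 0.34), *Msmo1* (0.96 ± 0.18) and *Insig1* (1.16 ± 0.22), which encode enzymes of the cholesterol pathway and, in the case of *Insig1*, a partner of the sterol sensor. The log2 difference was above 0 in stroma 2 for 20 of 21 genes (median 0.44), against 6590 of the 12788 genes tested there (median 0.01). In iris PE it was below 0 for 17 of 21 (median -0.38). The median difference between these 2 classes was 0.73 for the sterol genes and 0.01 over all genes. The group was picked from these same differences, so its counts and medians set beside all genes are no support for it. With 1 library left out, the calls against iris PE ran from 0 to 37, so none of these 5 held throughout. None of the 21 sterol genes was called in either class alone. In stroma 2 *Hmgcs1* was at 52.0, 39.1 and 33.7 CPM in untreated and 54.4, 91.5 and 51.8 CPM in constricted libraries, which overlap, and constricted replicate 2 was the highest. The log2 difference of *Hmgcs1* was 0.42 in stroma 1 and -0.23 in dilator muscle. The effect in stroma 2 exceeded these by 0.32 ± 0.29 and 1.01 ± 0.29, neither past the threshold (adjusted p = 0.951 and 0.501 in edgeR).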
